A study of Mus musculus with 9 samples.

Results

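The 9 genes described here, P2ry12, Tmem119, Siglech, Cx3cr1, Gpr34, Sall1, P2ry13, Fcrls and Csf1r, are known for their expression in resting (homeostatic) microglia, and were taken by gene name from the 34745 genes of each deposited table. RNA-seq of whole mouse spinal cord was done 7 days after spinal cord injury, in wild-type C57BL/6 mice aged 7 to 9 weeks. There were 3 groups of 3 libraries each: HBO (injured mice given hyperbaric oxygen), SCI (injured mice without that treatment) and sham (the uninjured control, which the series design calls sham). The labels name no transgene or drug in any group, and oxygen pressure, number of sessions and lesion level are not stated in the labels. All 9 genes passed the filter on low counts that left 17901 genes for testing.

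Microglia are the resident macrophages of the brain and spinal cord. In the healthy tissue they survey their surroundings with fine processes and carry a set of receptors and surface proteins that sense nucleotides, lipids, chemokines and growth factors. In many injury and disease models microglia lower part of this set while they take up debris and divide, and monocytes enter from the blood and become macrophages. Some of the 9 genes, Csf1r and Cx3cr1 above all, are also carried by monocytes and macrophages. In RNA from whole tissue, fewer cells of a type and less RNA per cell cannot be told apart.

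With injury the 9 genes formed 2 sets. Csf1r, Cx3cr1, P2ry13, Gpr34, Tmem119 and Fcrls rose 2.15-fold to 4.38-fold in SCI over sham and 1.89-fold to 3.68-fold in HBO over sham. In each of these 6 genes every injured library was above every sham library. Of all tested genes 20.0% rose in SCI over sham and 17.4% in HBO over sham. Every SCI library was above every sham library in 27.6% of all genes, and every HBO library in 24.2%. P2ry12, Siglech and Sall1 did not pass the test, and their injured and sham libraries overlapped. None of the 9 passed the test between HBO and SCI.

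Libraries held 11159587 to 15715484 counts. The chi-squared statistic of replicate counts, divided by its degrees of freedom, was 11.4 to 36.0, so replicates differed by more than counting noise. It is not stated if each library came from its own animal, so a p-value here measures the spread of the libraries alone, which may be technical. Genes of the caudal body axis (Hoxa5, Hoxb8, Hoxc8, Hoxc10 and Hoxa10) were counted in every library, as the spinal cord label has it. They summed to 143 to 155 CPM (counts scaled per library total) in HBO, 138 to 164 CPM in SCI and 194 to 239 CPM in sham. Of these 5 genes 3 fell in SCI over sham and 3 in HBO over sham. Whether the stretch of cord taken differed between the groups was not tested. Some libraries stood apart. SCI replicate 1 had 637 CPM of skeletal muscle genes (9.67 to 94.5 CPM in the other injured libraries) and 1296 CPM of erythroid genes (238 to 406 CPM in the other injured libraries). HBO replicate 3 had 392 CPM of neutrophil genes (45.9 to 112 CPM in the other injured libraries) and 6.55% mitochondrial counts, against 2.97% to 4.07% elsewhere. Sham replicate 3 had 450 CPM of Schwann cell genes, against 30.7 and 73.3 CPM in the other sham libraries. The 6 calls of rise in SCI over sham and in HBO over sham were the same without any of these libraries, and without SCI replicate 1 and HBO replicate 3 together, a setting added after the data were seen.

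P2ry12 and P2ry13 are both ADP receptors and lie side by side on chromosome 3, with a gap of 5389 bp between them, inside the gene Med12l, so their upstream sequences are set here beside those of Fcrls, which had the largest fold change of the 9, and Siglech, which did not pass the test. Each sequence is the 250 bases before the RefSeq start site on GRCm38.p6, read 5′ to 3′ on the strand of the gene. The positions are chr3:59262986-59263235 on the minus strand for P2ry12, chr3:59210883-59211132 on the minus strand for P2ry13, chr3:87263525-87263774 on the minus strand for Fcrls and chr7:55767934-55768183 on the plus strand for Siglech. Capitals mark GGAAGT, or its reverse complement, called the 6-base motif here. It is a form of the sites bound by ETS factors such as the myeloid factor PU.1. The shorter GGAA, which such sites share, was not marked.
P2ry12: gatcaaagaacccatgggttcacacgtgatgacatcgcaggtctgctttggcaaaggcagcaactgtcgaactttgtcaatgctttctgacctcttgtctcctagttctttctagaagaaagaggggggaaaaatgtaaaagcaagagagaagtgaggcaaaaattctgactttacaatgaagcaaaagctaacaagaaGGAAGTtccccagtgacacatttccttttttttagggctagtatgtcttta
P2ry13: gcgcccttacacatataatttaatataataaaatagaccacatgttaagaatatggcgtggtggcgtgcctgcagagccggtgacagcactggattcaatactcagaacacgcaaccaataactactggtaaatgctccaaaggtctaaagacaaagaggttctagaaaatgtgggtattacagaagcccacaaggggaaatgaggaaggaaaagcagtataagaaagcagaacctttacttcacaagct
Fcrls: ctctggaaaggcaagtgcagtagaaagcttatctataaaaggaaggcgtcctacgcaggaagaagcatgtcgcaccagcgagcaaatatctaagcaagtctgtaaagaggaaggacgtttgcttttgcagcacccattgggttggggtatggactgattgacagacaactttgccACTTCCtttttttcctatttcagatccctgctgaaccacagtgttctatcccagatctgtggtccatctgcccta
Siglech: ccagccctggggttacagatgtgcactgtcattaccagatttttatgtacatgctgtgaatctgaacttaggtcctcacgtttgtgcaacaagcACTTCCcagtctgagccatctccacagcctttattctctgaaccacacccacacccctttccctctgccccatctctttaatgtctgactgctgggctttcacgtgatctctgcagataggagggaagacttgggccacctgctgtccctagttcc
The 6-base motif stood 51 bases before the start of P2ry12 on the strand of the gene. It stood 75 bases before that of Fcrls and 156 bases before that of Siglech on the other strand. It was absent from the window of P2ry13. The 6-base motif was added after the sequences were seen, and 19.7% of all 32851 RefSeq windows of this length hold it on either strand. RefSeq windows were at hand for 6 of the 9 genes, 8 windows in all. Of the 3 windows of Sall1 1 held the 6-base motif, while that of Cx3cr1 did not. The windows of P2ry13 and Cx3cr1 do hold the shorter GGAA, which was not counted. Of 4 longer motifs searched on both strands, GAGGAAGT (a PU.1 site, in 2.44% of all windows), GGAANNGAA (a composite site of PU.1 and IRF factors, 6.99%), CTAAAAATA (a MEF2 site, 0.469%) and GTCTAGAC (a SMAD site, 0.167%), none was in any of the 8 windows. The first of these contains the 6-base motif. The RefSeq starts differ from the gene bounds of the deposited files for some genes. In those files Fcrls reaches to 87263738, so most of its window, with the 6-base motif, lies inside the gene. P2ry12 reaches only to 59262871 there, short of its window. The Siglech window ends at 55768183, past the gene start of 55768178.

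The 9 genes lie on 7 chromosomes of GRCm38. Besides P2ry12 (chromosome 3, 59216272 to 59262871, minus strand) and P2ry13 (chromosome 3, 59207892 to 59210882, minus strand), chromosome 3 holds Fcrls (87250758 to 87263738, minus strand). Tmem119 lies on chromosome 5 (113793729 to 113800516, minus strand), Siglech on chromosome 7 (55768178 to 55778925, plus strand), Sall1 on chromosome 8 (89027248 to 89044162, minus strand) and Cx3cr1 on chromosome 9 (119901616 to 120068283, minus strand). Csf1r lies on chromosome 18 (61105572 to 61132149, plus strand), and Gpr34 on the X chromosome (13632089 to 13640858, plus strand), inside the gene Cask, with which it shares no exon base.

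The levels of the 9 genes spanned a wide range in every group. Per kilobase of exon in the GENCODE vM21 annotation, Csf1r averaged 84.7, 84.2 and 37.0 CPM in HBO, SCI and sham libraries. Fcrls averaged 76.6, 91.0 and 20.8 CPM per kilobase in HBO, SCI and sham, and Cx3cr1 43.3, 49.3 and 22.9. In both injured groups Csf1r and Fcrls were the highest and their ranges overlapped. In sham libraries Csf1r was the highest and stood clear of the rest, while Cx3cr1 (17.5 to 26.2 CPM per kilobase) and Fcrls (12.5 to 26.1) overlapped.

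In the middle of the range, Tmem119 averaged 21.5, 26.0 and 9.04 CPM per kilobase in HBO, SCI and sham, Gpr34 16.8, 17.5 and 7.92, and Sall1 14.98, 16.0 and 13.5. The order of these genes differed between the groups. Tmem119 stood above Sall1 in both injured groups without overlap, and in sham libraries Sall1 (11.8 to 15.1 CPM per kilobase) stood above Tmem119 (8.31 to 10.4) without overlap. P2ry13 averaged 10.1, 10.6 and 4.41 CPM per kilobase in HBO, SCI and sham, and P2ry12 7.35, 7.45 and 6.97. Here too the order turned, since P2ry13 stood above P2ry12 in both injured groups and below it in sham libraries, without overlap in any of them. With the deposited FPKM P2ry13 stood above P2ry12 in sham libraries too, at 4.16 to 4.71 against 1.43 to 2.66, so that turn rests on the exon lengths used. Tmem119 still averaged more FPKM than Sall1 in both injured groups and less in sham, but in SCI libraries their ranges overlapped. Siglech was lowest in all groups, at 1.51, 1.44 and 1.47 CPM per kilobase in HBO, SCI and sham.

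The deposited FPKM (a count scaled by library size and gene length) put P2ry12 lower, at 2.11 ± 0.08 in HBO, 2.14 ± 0.60 in SCI and 2.02 ± 0.62 in sham libraries (SD, n = 3 each). The gene length implied by the authors' count and FPKM was 8851 bp for P2ry12, against 2546 bp of exon in GENCODE vM21. The same implied length was 8069 bp against 3383 bp for Siglech, 3917 bp against 2090 bp for Gpr34 and 6885 bp against 4505 bp for Cx3cr1. For P2ry13, Sall1 and Csf1r it was within 1.02 times the exon length. In sham libraries the FPKM of Cx3cr1 averaged 15.1, below that of Fcrls at 18.2, while per kilobase of exon Cx3cr1 averaged more. So comparisons of levels between genes depend on the gene model, which the labels do not name. Comparisons of 1 gene between groups do not use the length, but they do use the reads that the gene model takes in. The implied length exceeded the exon length most for P2ry12 and Siglech, which did not pass the test. It also exceeded it for Gpr34 and Cx3cr1, which rose. What the gene model does to the fold changes was not tested.

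Csf1r encodes the receptor for CSF1 and IL-34, on which microglia depend for survival. It had 437, 556 and 475 CPM in HBO libraries, 505, 460 and 493 CPM in SCI libraries, and 186, 222 and 233 CPM in sham libraries. All 6 injured libraries were above the 3 sham libraries, and HBO and SCI overlapped. By edgeR's quasi-likelihood test with Benjamini-Hochberg adjustment over all 17901 genes, which gave all adjusted p-values of genes below, Csf1r rose in SCI over sham by 1.19 ± 0.13 (log2 ± SE, adjusted p = 0.000516) and in HBO over sham by 1.19 ± 0.13 (adjusted p = 0.000706). On its exons 15.1% of bases overlap Hmgxb3 on the other strand. The strand setting of the counting is not given, so reads there could not be assigned with certainty. Hmgxb3 averaged 44.2 ± 6.00 CPM in HBO, 47.0 ± 3.31 CPM in SCI and 49.8 ± 2.40 CPM in sham, all below the Csf1r values, and did not pass any test.

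Cx3cr1 encodes the receptor for fractalkine, a chemokine that neurons carry on their surface. It had 194, 224 and 167 CPM in HBO libraries, 217, 205 and 244 CPM in SCI libraries, and 78.8, 113 and 118 CPM in sham libraries. The groups separated as for Csf1r, with sham replicate 1 the lowest of all. Cx3cr1 rose in SCI over sham by 1.11 ± 0.17 (adjusted p = 0.00122) and in HBO over sham by 0.92 ± 0.17 (adjusted p = 0.0035), the smallest rise of the 6 genes.

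P2ry13, which encodes an ADP receptor, had 23.4, 27.2 and 25.7 CPM in HBO libraries, 29.0, 24.9 and 26.4 CPM in SCI libraries, and 11.2, 11.7 and 10.5 CPM in sham libraries. It had the least spread of the 6 risen genes in sham and HBO libraries, with a coefficient of variation of 7.46% in HBO and 5.39% in sham. P2ry13 rose in SCI over sham by 1.26 ± 0.13 (adjusted p = 0.000516) and in HBO over sham by 1.19 ± 0.13 (adjusted p = 0.000706). By p-value it ranked 30th and 42nd of all genes in these comparisons.

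P2ry12 encodes the ADP receptor through which microglia send processes towards damaged cells. It had 18.7, 19.0 and 18.4 CPM in HBO libraries, 14.8, 17.5 and 24.6 CPM in SCI libraries, and 12.7, 23.1 and 17.4 CPM in sham libraries. The HBO libraries lay close together (coefficient of variation 1.40%) and inside the range of the other groups. The same coefficient was 26.5% in SCI and 29.5% in sham. The HBO values rest on 265, 245 and 223 reads, and whether their closeness is more than coincidence was not tested. P2ry12 differed in SCI over sham by 0.10 ± 0.23 (adjusted p = 0.778) with a 95% interval of the fold of 0.749 to 1.53, and in HBO over sham by 0.08 ± 0.23 (adjusted p = 0.827) with an interval of 0.739 to 1.51. Both intervals end below the smallest fold estimate of the 6 risen genes in the same comparison, that of Cx3cr1, which has its own error. In HBO over sham the interval of Cx3cr1 was 1.46 to 2.44 and overlapped that of P2ry12. Of the GENCODE vM21 exon bases of P2ry12 0.35% overlap Med12l on the other strand. The overlap is not known for the longer gene model implied by the deposited FPKM. Med12l fell to 89.8 ± 15.3 CPM in HBO and 80.3 ± 12.8 CPM in SCI, against 144 ± 10.6 CPM in sham (log2 fold change in SCI over sham −0.85, adjusted p = 0.00277). Whether reads of Med12l stand in the P2ry12 count was not tested.

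Gpr34 encodes a receptor for the lipid lysophosphatidylserine, which dying cells expose. It had 32.6, 41.5 and 31.3 CPM in HBO libraries, 38.8, 30.6 and 40.1 CPM in SCI libraries, and 13.4, 19.9 and 16.4 CPM in sham libraries. The injured libraries lay above the sham libraries without overlap. Gpr34 rose in SCI over sham by 1.14 ± 0.18 (adjusted p = 0.00153) and in HBO over sham by 1.09 ± 0.18 (adjusted p = 0.0024).

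**Figure D1:**
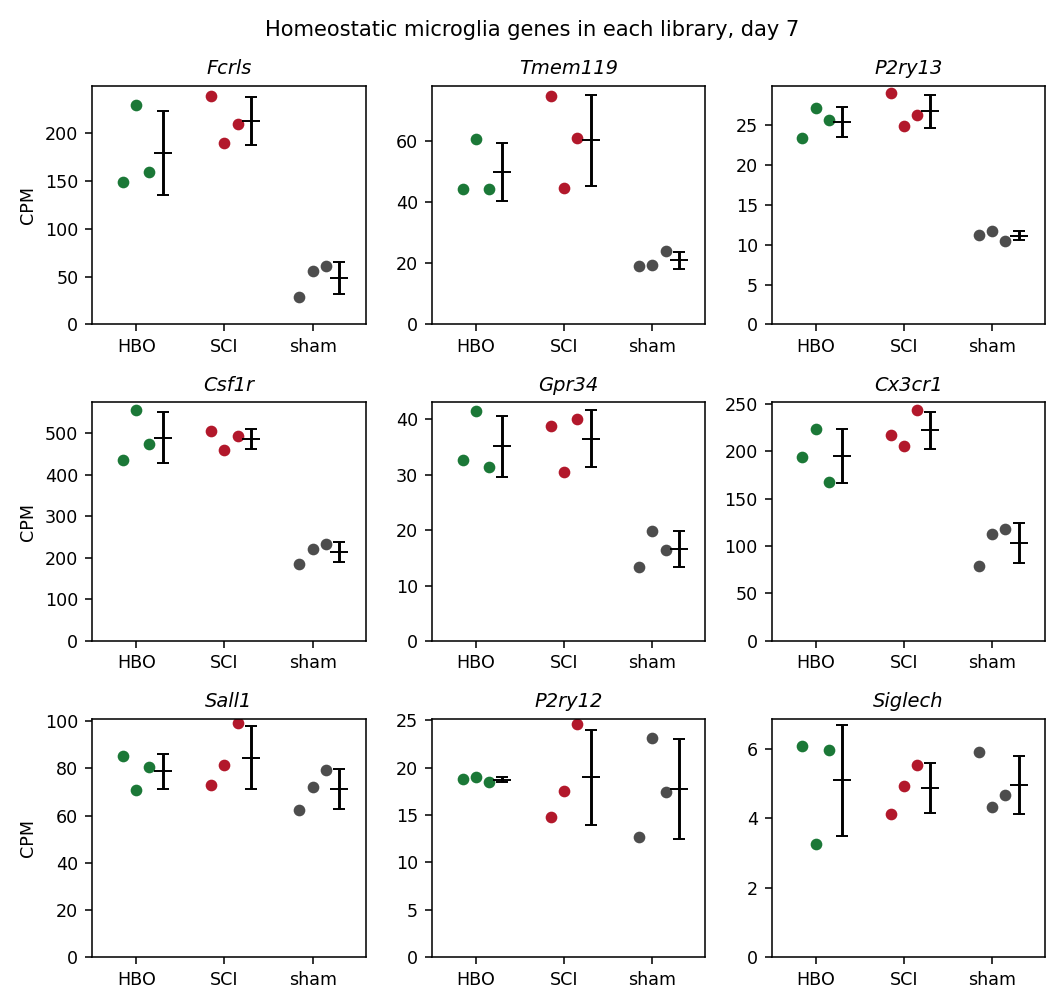
CPM of each gene in each library, on linear axes from 0, with groups HBO, SCI and sham from left to right; points are libraries and the bar beside them is the mean ± SD of 3. In the upper 6 panels every HBO and SCI point lies above every sham point, and in the panels of Sall1, P2ry12 and Siglech the groups overlap.

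Among the surface proteins, Fcrls, an Fc receptor-like molecule of mouse microglia, moved most. It had 148, 229 and 159 CPM in HBO libraries, 239, 190 and 209 CPM in SCI libraries, and 29.1, 55.4 and 61.0 CPM in sham libraries. Sham replicate 1 was the lowest library, as for Cx3cr1, and the lowest injured library was still above the highest sham library. Fcrls rose in SCI over sham by 2.13 ± 0.26 (adjusted p = 0.000591) and in HBO over sham by 1.88 ± 0.26 (adjusted p = 0.00112). Without sham replicate 1 these were 1.87 and 1.62 and still passed the test.

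Tmem119, a transmembrane protein used as a marker that separates microglia from blood-derived macrophages in the healthy brain, had 44.2, 60.7 and 44.3 CPM in HBO libraries, 74.7, 44.8 and 61.1 CPM in SCI libraries, and 19.2, 19.4 and 24.1 CPM in sham libraries. SCI replicate 1, the library with high muscle and erythroid values, was the highest. Tmem119 rose in SCI over sham by 1.52 ± 0.20 (adjusted p = 0.000736) and in HBO over sham by 1.25 ± 0.20 (adjusted p = 0.0022). Without SCI replicate 1 the first was 1.34.

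Siglech, a sialic acid-binding lectin of microglia and of plasmacytoid dendritic cells, had 6.08, 3.25 and 5.96 CPM in HBO libraries, 4.11, 4.92 and 5.54 CPM in SCI libraries, and 5.90, 4.31 and 4.66 CPM in sham libraries. These rest on 186 to 211 reads per group, the lowest depth of the 9 genes. Siglech differed in SCI over sham by −0.03 ± 0.27 (adjusted p = 0.939), with a 95% interval of the fold of 0.650 to 1.47, and in HBO over sham by 0.04 ± 0.27 (adjusted p = 0.927). The other markers of plasmacytoid dendritic cells (Ccr9, Klk1, Ly6d and Cox6a2) summed to 1.70 to 2.07 CPM in HBO, 1.37 to 3.26 CPM in SCI and 0.528 to 1.33 CPM in sham. None of the 2 that were tested passed.

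Sall1, a transcription factor that holds microglia in their identity, was the only nuclear regulator among the 9. It had 85.3, 70.8 and 80.5 CPM in HBO libraries, 73.0, 81.3 and 99.2 CPM in SCI libraries, and 62.3, 72.2 and 79.5 CPM in sham libraries. Sall1 differed in SCI over sham by 0.24 ± 0.14 (adjusted p = 0.203), with a 95% interval of the fold of 0.954 to 1.47, and in HBO over sham by 0.14 ± 0.14 (adjusted p = 0.472). SCI replicate 3, the highest library for Sall1, was also the highest for P2ry12 and Cx3cr1.

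So 6 of 9 genes rose in SCI over sham and none fell, beside a background of 20.0% of all tested genes that rose in this comparison. In HBO over sham 6 of 9 rose, beside 17.4% of all genes, and with all 6 injured libraries set against sham 6 of 9 rose, beside 21.6%. The comparisons share the sham libraries and are not independent. Every SCI library was above every sham library in 6 of 9 genes, beside 27.6% of all genes, and every HBO library in 6 of 9, beside 24.2%. The median log2 fold change of the 9 was 1.14 in SCI over sham and 1.09 in HBO over sham, and that of all genes was 0.00 in both.

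**Figure D2:**
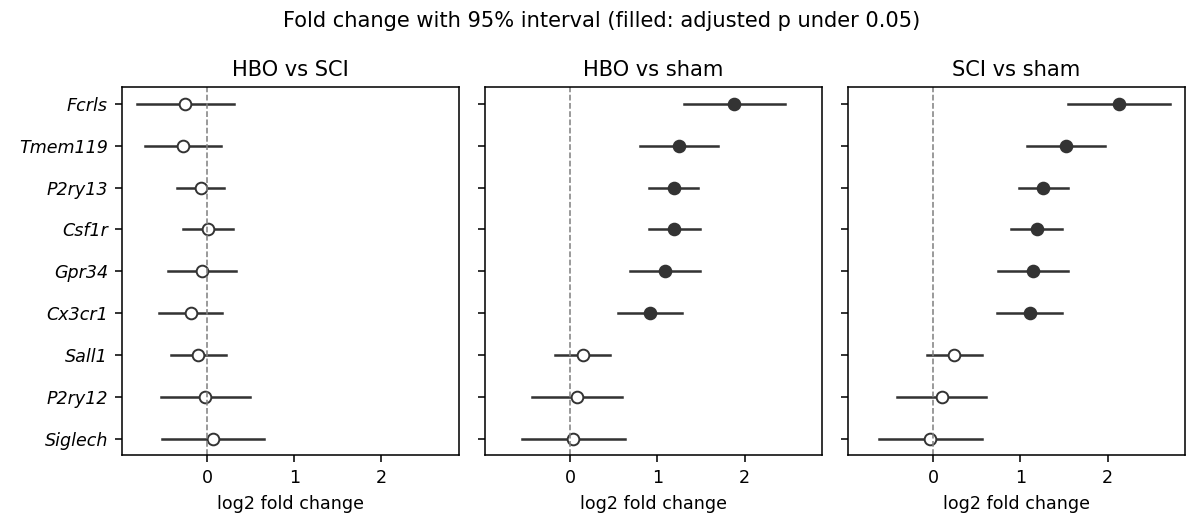
Log2 fold change of each gene with its 95% interval from edgeR, in HBO vs SCI, HBO vs sham and SCI vs sham; filled points passed an adjusted p under 0.05. The upper 6 genes are filled and right of 0 in both comparisons with sham, between 0.92 and 2.13, and all 9 intervals of HBO vs SCI hold 0.

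Hyperbaric oxygen was compared with injury alone to ask what the treatment changes in the injured cord. None of the 9 genes passed the test in HBO over SCI, and 0.00% of all tested genes did. At an unadjusted p under 0.05 edgeR had 749 of all genes and none of the 9. DESeq2 called 22 of all genes and none of the 9. The HBO and SCI libraries overlapped in all 9 genes, and 8.03% of all genes had no overlap in either direction.

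The estimates for HBO over SCI were small. They ran from −0.28 ± 0.20 for Tmem119 and −0.25 ± 0.25 for Fcrls to 0.07 ± 0.26 for Siglech (log2 ± SE). The intervals show how much change these data can hold. For Csf1r the 95% interval of the fold was 0.825 to 1.23, for P2ry13 0.789 to 1.14 and for Sall1 0.752 to 1.16. For Fcrls it was 0.573 to 1.24, for Tmem119 0.611 to 1.12 and for P2ry12 0.693 to 1.41. A p that misses the threshold does not show that the groups are alike, and a level of Fcrls or Tmem119 in HBO down to the lower bounds given was not excluded.

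Because Csf1r is carried by microglia and by macrophages that enter the cord, each other gene was also set against Csf1r in the same library, as the log2 ratio of their CPM (prior count 2). The 6 injured libraries were compared with the 3 sham libraries by an exact two-sided permutation test, whose smallest possible p is 0.0119. Of the 8 ratios tested, 4 reached that p. The ratio of P2ry12 to Csf1r was −4.69 ± 0.26 in injured libraries and −3.61 ± 0.32 in sham libraries (SD), a difference of −1.08 (exact permutation p = 0.0119). That of Siglech differed by −1.21 and that of Sall1 by −0.999 (exact permutation p = 0.0119 for both). For each of these 3 genes all 6 injured libraries were below all 3 sham libraries, as for 78.0% of all genes, so any gene with an even level across the groups falls on this measure.

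The ratio of Fcrls to Csf1r was −1.34 ± 0.19 in injured libraries and −2.20 ± 0.41 in sham libraries, higher by 0.86 in the injured libraries (exact permutation p = 0.0119). All 6 injured libraries were above all 3 sham libraries, as for 3.16% of all genes. The ratios of the other 4 genes differed little. They differed by 0.17 for Tmem119 (exact permutation p = 0.345), −0.17 for Cx3cr1 (exact p = 0.214), −0.08 for Gpr34 (exact p = 0.476) and 0.02 for P2ry13 (exact p = 0.810). With only 3 SCI or 3 HBO libraries against 3 sham libraries the smallest possible exact p is 0.1, so no ratio of 1 injured group could pass the exact test.

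The result depends on what the genes are set against. Against the summed CPM of 12 pan-myeloid genes in place of Csf1r, 7 of the 8 ratios were lower in injured libraries, and that of Fcrls differed by 0.13 and no longer passed. All 6 injured libraries were below all 3 sham libraries in those 7, as for 88.7% of all genes, so the count of 7 says little about these genes. Tmem119 then differed by −0.56 and P2ry13 by −0.71. The pan-myeloid genes summed to 2365 to 3799 CPM in HBO, 2782 to 3825 CPM in SCI and 656 to 972 CPM in sham.

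**Figure D3:**
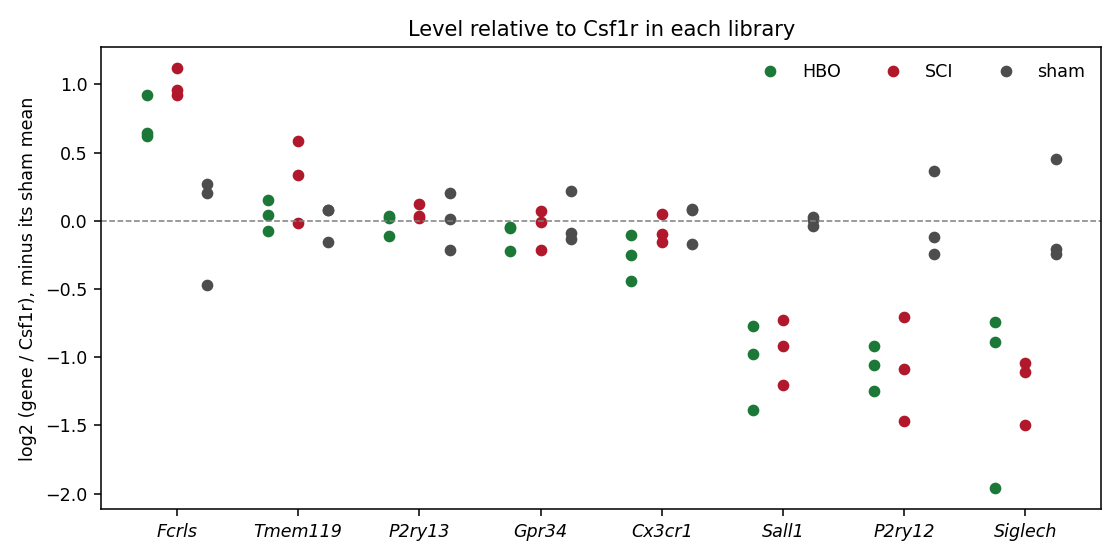
Log2 ratio of each gene to Csf1r in each library, minus the mean of the sham libraries for that gene, with HBO, SCI and sham from left to right within a gene. Fcrls lies above the sham points in all 6 injured libraries, Sall1, P2ry12 and Siglech lie below, and the other 4 genes overlap.

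Other genes known from homeostatic microglia were read beside the 9. Of 18 such genes 14 rose in SCI over sham and 1 fell, with a median log2 fold change of 1.03, and in HBO over sham 14 rose and 1 fell (median 1.04). The leukotriene synthase Ltc4s rose by 2.16 ± 0.23 (adjusted p = 0.000516), the Golgi protein Golm1 by 1.33 ± 0.15 (adjusted p = 0.000516) and the immune checkpoint gene Vsir by 1.41 ± 0.16 (adjusted p = 0.000525) in SCI over sham. Genes on the other strand overlap 26.4% of the exon bases of Ltc4s and 29.3% of those of Golm1, with the same doubt about reads as for Csf1r. The gene that fell was Bin1, which neurons and oligodendrocytes also express, by 0.54 ± 0.12 (adjusted p = 0.00606). Slc2a5 (2.93 CPM in SCI and 2.72 CPM in sham), Crybb1 (2.11 CPM in SCI and 2.07 CPM in sham) and Adgrg1 (163 CPM in SCI and 136 CPM in sham) did not pass.

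The ligands of the member receptors did not move as one. Csf1 rose in SCI over sham by 0.63 ± 0.11 (adjusted p = 0.00203) and in HBO over sham by 0.73 ± 0.11 (0.00134). Il34, the other ligand of the CSF1 receptor, rose in SCI over sham by 0.73 ± 0.20 (adjusted p = 0.0178), and in HBO over sham the estimate was 0.55 ± 0.20 (adjusted p = 0.0625). Cx3cl1, which encodes fractalkine, fell by 0.58 ± 0.18 in SCI over sham (adjusted p = 0.0289) and by 0.60 ± 0.18 in HBO over sham (0.0283). The neuronal genes Snap25, Rbfox3, Syt1, Nefl and Nefm all fell in SCI over sham, with a median of −1.19, and their part in the Cx3cl1 value was not tested.

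P2ry12 and P2ry13 were also read with the enzymes that make and remove ADP outside cells and with related receptors. The list also held Kcnk13 and the G protein gene Gnai2. Of 9 tested genes 5 rose, Gnai2 among them, and 1 fell in SCI over sham (median 0.71). In HBO over sham 4 rose and 1 fell (median 0.59). P2ry6, the UDP receptor tied to phagocytosis by microglia, rose by 2.52 ± 0.33 in SCI over sham (adjusted p = 0.000664), and Entpd1 (CD39), which breaks down ATP and ADP, by 1.15 ± 0.19 (adjusted p = 0.00175). P2ry14, a receptor for UDP-glucose that lies with P2ry12 and P2ry13 inside Med12l, rose by 1.36 ± 0.29 (adjusted p = 0.0051). Gpr171, in the same stretch, averaged 0.884 CPM in HBO, 0.487 CPM in SCI and 0.382 CPM in sham and did not pass. Kcnk13, which encodes a potassium channel, averaged 19.5 CPM in HBO, 19.9 CPM in SCI and 22.4 CPM in sham and did not pass in any comparison.

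TGF-beta signalling keeps microglia in the homeostatic state, and Sall1 is among the genes that depend on it. Of 9 genes of this route 5 rose and none fell in SCI over sham (median 0.68). They were the ligand Tgfb1 (1.998 ± 0.21, adjusted p = 0.000516), Nrros, which holds latent TGF-beta at the surface of microglia (2.08 ± 0.25, adjusted p = 0.00055), the receptor genes Tgfbr2 (1.85 ± 0.22) and Tgfbr1 (1.04 ± 0.16), and the signal transducer Smad3 (0.68 ± 0.12). Of 9 transcription factors of microglia 8 rose in SCI over sham (median 1.31), among them Runx1 (2.02 ± 0.26) and Irf8 (1.75 ± 0.25). The one that did not was Sall3, a relative of Sall1, which averaged 26.6 CPM in HBO, 29.3 CPM in SCI and 37.8 CPM in sham. Sall3 fell in HBO over sham by 0.51 ± 0.15 (adjusted p = 0.0308).

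Markers of activated microglia and of other macrophages rose further than most of the 9 genes. All 12 pan-myeloid genes rose in SCI over sham (median 2.05), as did 18 of 18 genes of disease-associated microglia (median 2.20), those with the smallest p being Ctsd (34.4% of whose exon bases another annotated gene shares), Lgals3 and Cd68. The disease-associated genes summed to 9750 to 17668 CPM in HBO, 13017 to 23740 CPM in SCI and 2584 to 3648 CPM in sham. Of border-associated macrophage genes 9 of 9 rose (median 3.34), with sums of 205 to 429 CPM in HBO, 236 to 435 CPM in SCI and 23.0 to 44.7 CPM in sham. Of genes of monocyte-derived macrophages 6 of 9 rose (median 1.70), with sums of 1251 to 2713 CPM in HBO, 1952 to 2607 CPM in SCI and 186 to 340 CPM in sham, Lyz2 being the largest part of each injured library's sum. All 6 genes of cell division rose (median 2.004), with sums of 123 to 266 CPM in HBO, 153 to 327 CPM in SCI and 35.0 to 51.6 CPM in sham. The part of entering macrophages and of dividing cells in the rise of Csf1r, Cx3cr1, P2ry13, Gpr34, Tmem119 and Fcrls was not tested. No gene of any of these lists passed in HBO over SCI.

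**Figure D4:**
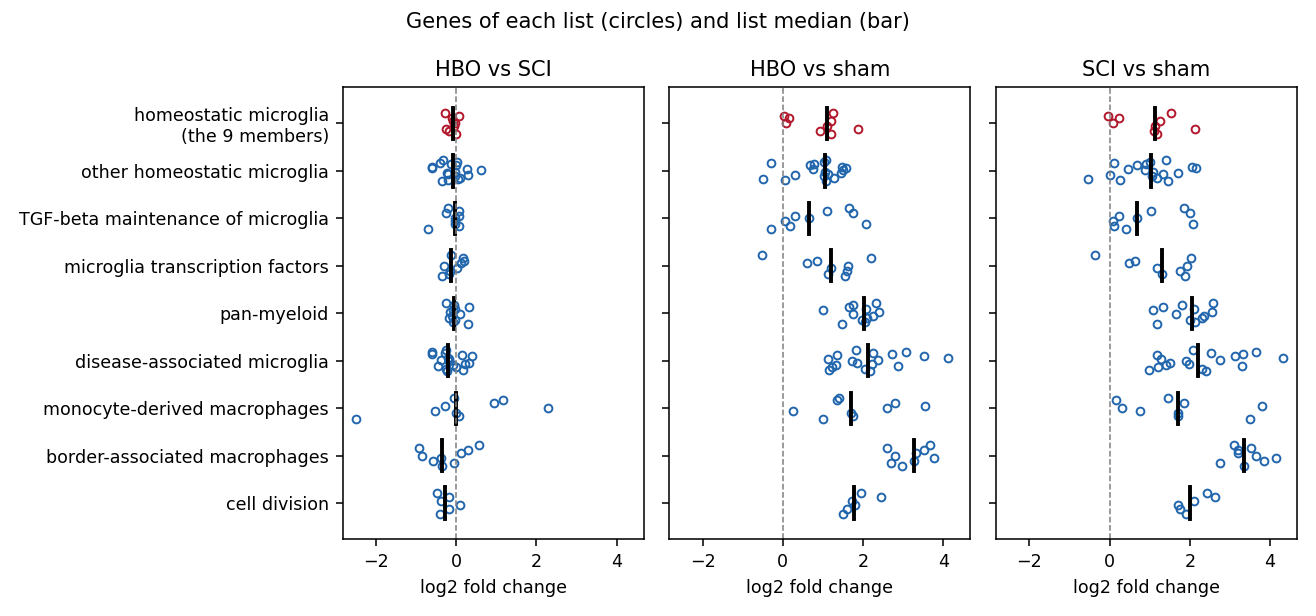
Log2 fold change of every tested gene (circles) and the median (bar) of the 9 homeostatic genes and of 8 related lists, in HBO vs SCI, HBO vs sham and SCI vs sham. In SCI vs sham the median of the 9 is 1.14, beside 2.05 for pan-myeloid, 2.20 for disease-associated and 3.34 for border-associated genes, and in HBO vs SCI all medians lie between −0.36 and 0.00.

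The genes whose pattern over the 9 libraries was most like the median of the 9 homeostatic genes were found among 12371 genes with a mean of 5 CPM or more, by the root mean square difference of centred log2 CPM. The closest was Marcks (0.077), followed by Ackr3 (0.090), Cd33 (0.103), Hfe (0.104) and Tgfbr1 (0.107), then Anxa5, Pdgfra, Nfkb2, Prdx1 and Limd2. Cd33 and Tgfbr1 were also on the lists above. Of the 9 genes themselves Gpr34 (0.071), Csf1r (0.106) and Cx3cr1 (0.109) were about as close, and Siglech (0.642) was the farthest. These genes make up the median they are measured against, so their closeness is partly built in. For P2ry12 alone the closest were Scn9a (0.130), Pamr1 (0.132) and Pax6 (0.147), then Zbtb8os and Pigb, none of them on a microglial list here. Sall1 was at 0.200 from P2ry12, Siglech at 0.405 and P2ry13 at 0.593.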

How the data were processed

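Whole spinal cord RNA (1 ug per library, standard Illumina libraries) was sequenced in 9 libraries, 3 per group. The submitters' processing notes name HISAT2, with no version, and the build GRCm38 (mm10). How strands were handled, which tool counted and which annotation it used is not stated there. The deposited counts are the authors' raw read counts per gene. The deposited FPKM are the authors' values and were used for levels and implied gene lengths only. The length implied by count and FPKM agreed between libraries within a relative spread of 5.7e-05 over 15764 genes.

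The counts went into edgeR 4.0.16 (R 4.3.3). The function filterByExpr kept 17901 of 24929 genes with a count, libraries were TMM-scaled, and 1 mean per group was fitted over all 9 libraries with glmQLFit. Contrasts were tested with glmQLFTest, and a gene was called where its p, adjusted by Benjamini-Hochberg over all genes, was under 0.05. The SE is |log2 fold change|/√F. CPM use TMM-scaled totals. DESeq2 1.42.0, other scalings, no filter, a replicate block, fits of the groups compared and leaving out each library were alternatives. Positions are from the deposited files on GRCm38, and exons from GENCODE vM21. Promoter windows are from RefSeq.

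The 9 genes and the 21 further lists (159 genes) were chosen with earlier results of these data known. Named genes are the 9, the 3 of a list with the smallest p in SCI over sham, members of the ligand, ADP, TGF-beta and transcription factor lists where a value was needed, and the genes of most like pattern. Bin1, Slc2a5, Crybb1, Adgrg1, Med12l and Hmgxb3 were added after their values were seen. Lists of oligodendrocytes and astrocytes are in the closing section, and a few listed genes are not reported here. Counting error alone is not the limit here, since replicates differed by more than it.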

Additional observations from a re-analysis of the deposited data

How the results depend on the processing

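The count of 6 of 9 genes risen in SCI over sham, in HBO over sham and in all injured libraries over sham, and of 0 of 9 in HBO over SCI, was the same under other scalings, no filter, DESeq2, fits of the groups compared alone (not run for all injured libraries), a replicate block and each left-out library. Without SCI replicate 1 and HBO replicate 3 together, chosen after seeing the data, the counts were also 6, 6, 6 and 0. The replicate numbers did not pair the libraries, since the deviations of libraries with the same number correlated at −0.179 to 0.138. With a replicate block the counts of members did not move, and over all genes 5592 were called in SCI over sham, against 6545 without it. Only P2ry12 in HBO over SCI changed sign under the block, to 0.0096.

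Values near 0 changed sign, and none of these passed the test. With 1 library left out, or SCI replicate 1 and HBO replicate 3 together, P2ry12 ran from −0.13 to 0.33 in SCI over sham, −0.17 to 0.21 in HBO over SCI, −0.11 to 0.31 in HBO over sham and −0.11 to 0.32 in injured over sham. Siglech ran from −0.14 to 0.11, −0.16 to 0.31, −0.11 to 0.28 and −0.087 to 0.15 in the same order. In HBO over SCI, Gpr34 ran from −0.19 to 0.067, Sall1 from −0.21 to 0.032 and Csf1r from −0.094 to 0.084. Siglech in injured over sham was −0.0041 with RLE scaling, −0.0080 without scaling factors and −0.0010 with DESeq2. Without SCI replicate 1 and HBO replicate 3, Siglech was 0.083 in SCI over sham, −0.16 in HBO over SCI and −0.077 in HBO over sham, and Gpr34 was 0.067 in HBO over SCI.

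The count of ratios to Csf1r that differed, with p-values adjusted over the 8 ratios, was 4, and with 1 library left out it ran from 0 to 4. It was 0 without any 1 of the sham libraries and 0 without SCI replicate 1 and HBO replicate 3, and in both cases fewer libraries raise the smallest p the design allows. That is not all, since the lowest adjusted exact permutation p was 0.0952 without sham replicate 1, against 0.0714 without sham replicate 2 or 3. With 1 library left out the adjusted exact permutation p of Siglech reached 0.114. The differences themselves ran, with 1 library left out, from −1.20 to −0.90 for P2ry12, −1.33 to −0.98 for Siglech, −1.05 to −0.92 for Sall1, 0.63 to 1.00 for Fcrls, −0.14 to 0.033 for Gpr34 and −0.087 to 0.12 for P2ry13. Without SCI replicate 1 and HBO replicate 3 that of P2ry13 was −0.0083. Set against the pan-myeloid sum the count was 7, beside 88.7% of all genes with every injured library below every sham library on this measure, with Tmem119 at −0.56 and P2ry13 at −0.71. A prior count of 0.5 gave 4.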

Other observations

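Markers of cells outside the microglial and macrophage lists were read in the same libraries. Of 4 astrocyte genes Gfap and Aldh1l1 rose in SCI over sham and Slc1a2 fell, and of 5 oligodendrocyte genes Mog fell by 0.49 ± 0.14 (edgeR adjusted p = 0.021). Of 9 tested neutrophil genes none passed in SCI over sham, and 1, the collagenase Mmp8, rose in HBO over sham, by 2.21 ± 0.61 (edgeR adjusted p = 0.0209), named because it passed. Mmp8 had 4.45, 5.88 and 19.8 CPM in HBO libraries, and 3.11, 0.615 and 2.66 CPM in sham libraries, the highest being HBO replicate 3. In HBO over SCI all 9 estimates were above 0. Of the 9, 4 had an unadjusted edgeR p under 0.05, beside 749 of all 17901 genes, and none passed adjustment. The listed neutrophil genes summed to 112, 51.7 and 392 CPM in HBO libraries and 77.0, 80.9 and 45.9 CPM in SCI libraries. So the highest sum was again that of HBO replicate 3, and the estimates without that library are not reported here.

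Among the 18 other homeostatic genes, 4 had an unadjusted edgeR p under 0.05 in HBO over SCI, beside 749 of all 17901 genes, and none passed adjustment. They are named because of that p. Il10ra averaged 49.1 CPM in HBO and 31.9 CPM in SCI, and Lpcat2 57.1 CPM in HBO and 47.1 CPM in SCI, so both were higher in HBO. Ltc4s averaged 4.12 CPM in HBO and 6.22 CPM in SCI, and Adgrg1 141 CPM in HBO and 163 CPM in SCI, so both were lower. Itgav, of the TGF-beta list, averaged 206 CPM in HBO and 334 CPM in SCI, with an unadjusted p that was the lowest of the lists.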
